A study of Mus musculus with 11 samples.

Results

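The extracellular matrix and proteoglycan genes described here are 52 genes named by symbol: lecticans, tenascins, link proteins, testicans and Sparc, spondins, laminins and other basement membrane genes, collagens, fibronectin, glypicans, syndecans and hyaluronan synthases. Col6a3 was left out of the list by its rule. All 52 genes were among the 39179 genes of the count table, and 48 of them reached the mean of at least 0.5 CPM (counts scaled to a common library size, here by each library's total) that was required for testing, as did 15227 genes in all. The 4 genes below that level, Hapln2, Col1a1, Col3a1 and Has2, are described by their counts.

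The study asked what Zeb2 does in the neurogenic ventricular-subventricular zone (V-SVZ), where neurons are born beside the lateral ventricles of the forebrain. RNA was sequenced from GFP-positive cells sorted from papain-treated V-SVZ tissue of CD1/Swiss mice at postnatal day 2. All libraries carried Gsh2-Cre and the RCE reporter, which marks with GFP the cells that expressed Cre from the Gsh2 promoter and their progeny. The 6 control libraries had the genotype Zeb2fl/wt and the 5 libraries labelled mutant had the genotype Zeb2fl/ko. In the controls, Cre thus acted on 1 floxed allele beside a wild-type one. In the mutants, the other allele was a knockout allele in every cell of the animal, not only in the Gsh2 lineage. The labels do not say whether each library came from 1 animal or from pooled animals, so p-values reflect only how far these libraries spread.

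Lecticans are chondroitin sulfate proteoglycans that bind the polysaccharide hyaluronan, link proteins stabilise that bond, and tenascins tie lecticans together into the loose matrix between brain cells. Glypicans and syndecans carry heparan sulfate chains at the cell surface, where they bind growth factors, whereas laminins, type IV collagen, nidogens, perlecan and agrin build basement membranes. In the V-SVZ, radial glia and stem cells make parts of this matrix themselves and also touch basement membranes of the vessels.

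Library totals were 6833981 to 13073505 counts, with 16836 to 18649 genes detected. Zeb2, the targeted gene, had 239 ± 48.9 CPM (SD, n = 6) in controls and 302 ± 71.5 CPM (SD, n = 5) in mutants, scaled by library totals, and so was not lower in the mutants (exact two-sided permutation test, p = 0.156; the smallest p this design allows is 0.00433). A count over all exons of a gene does not check a deletion within it, so the mutant libraries are named by their label only. Counts of 4 Y-linked genes were present in controls 1, 2, 3 and 6 and absent from controls 4 and 5 and from all 5 mutants, so the sex make-up of the libraries differed between the groups. All 12 markers of the sorted lineage (Gsx2, Dlx1, Dlx2 and others) were detected, and their summed level was 2940 to 4534 CPM in controls and 3674 to 5013 CPM in mutants. Single markers differed in direction. Gad2 had 212.5 to 419.3 CPM in controls and 523.3 to 753.6 CPM in mutants. Dlx5 had 166.4 to 264.1 CPM in controls and 142.2 to 180.1 CPM in mutants, and Sp9 had 40.68 to 67.31 CPM and 24.4 to 50 CPM. Markers of oligodendrocyte precursors summed to 975 to 2705 CPM in controls, with the highest sum in control 6, and to 687 to 1126 CPM in mutants. Endothelial markers summed to at most 10.05 CPM in any library, with Tek and Erg at 0 in all 11. Choroid plexus markers summed to at most 13.2 CPM except in mutant 5, which had 203 CPM, nearly all of it from Ttr. These are bulk measurements, in which fewer cells of a type and less RNA per cell cannot be told apart.

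Among the 48 tested genes, 2 were higher in the mutants, Spock1 and Gpc4, and 3 were lower, Spon1, Spon2 and Tnr (edgeR quasi-likelihood test, Benjamini-Hochberg adjusted p below 0.05 over all 15227 genes). The other 43 did not pass. These 5 genes are 10.4% of the tested members, beside 4.14% of all tested genes called in either direction, 2.52% called higher and 1.62% called lower. In 6 members (12.5%) the values of the groups did not overlap, beside 4.67% of all tested genes. They were Spock1, Gpc4 and Gpc3, with every mutant above every control, and Spon1, Spon2 and Tnr, with every mutant below. The median log2 fold change (mutant minus control) was -0.16 over the members, of which 29 were negative and 19 positive, and -0.02 over all tested genes. Over the 7 libraries without Y-linked counts (controls 4 and 5 and the 5 mutants) the median was 0.02 over the 46 members tested there and 0.01 over all genes. Without control 6, 1 member was called higher and 3 lower, and without mutant 5, 3 were called higher and 4 lower.

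**Figure D1:**
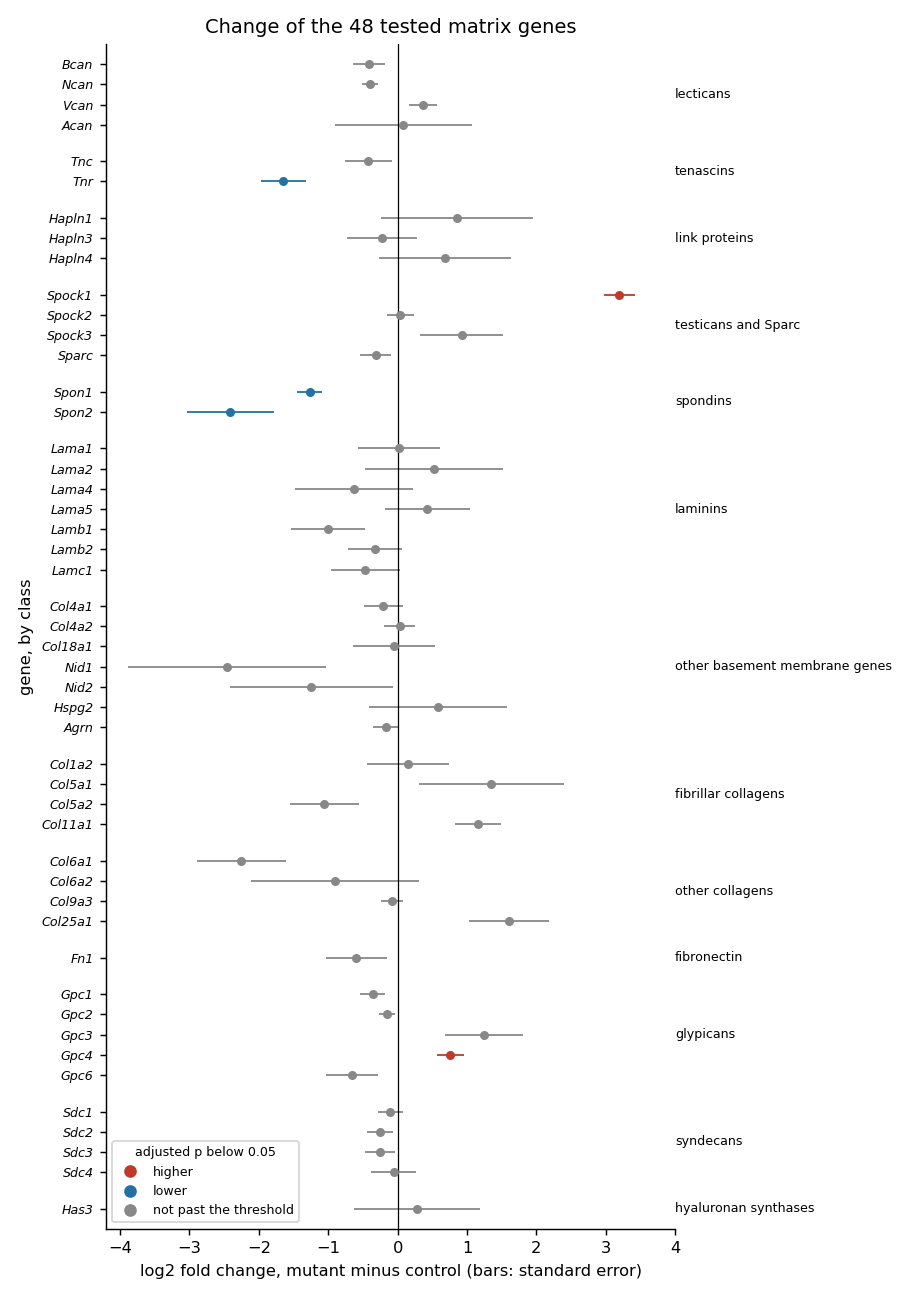
Log2 fold change (mutant minus control, horizontal axis) of the 48 tested matrix and proteoglycan genes, arranged by class, with bars of 1 standard error; red marks genes higher and blue genes lower in mutants at an adjusted p below 0.05, and grey the rest. Spock1 lies farthest to the right at 3.20, and Spon1, Spon2 and Tnr lie at -1.27, -2.41 and -1.65.

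On a scale that divides by gene length (TPM, computed from the summed exon length of each gene), a few genes held most of the RNA of the list. The highest control means were those of Bcan (343 TPM), Ncan (308 TPM), Gpc2 (193 TPM) and Spon1 (165 TPM), the 4 members with a mean of at least 100 TPM over all libraries. A further 15 members had 10 to 100 TPM, 18 had 1 to 10 TPM and 15 had less than 1 TPM. Lecticans made up 39.1% of the summed TPM of the 52 genes in controls and 37.4% in mutants. Spondins made up 10.1% in controls and 4.76% in mutants, and testicans with Sparc 6.11% in controls and 8.90% in mutants. The sum over all 52 genes was 1777 ± 357 TPM (SD, n = 6) in controls and 1485 ± 140 TPM (SD, n = 5) in mutants, with overlapping ranges of 1339 to 2318 TPM and 1266 to 1614 TPM. In this order of levels Spock1 stood at 3.71 TPM in controls, close to Col11a1 with 3.58 TPM, and at 34.4 TPM in mutants, close to Spock2 with 35.5 TPM.

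**Figure D2:**
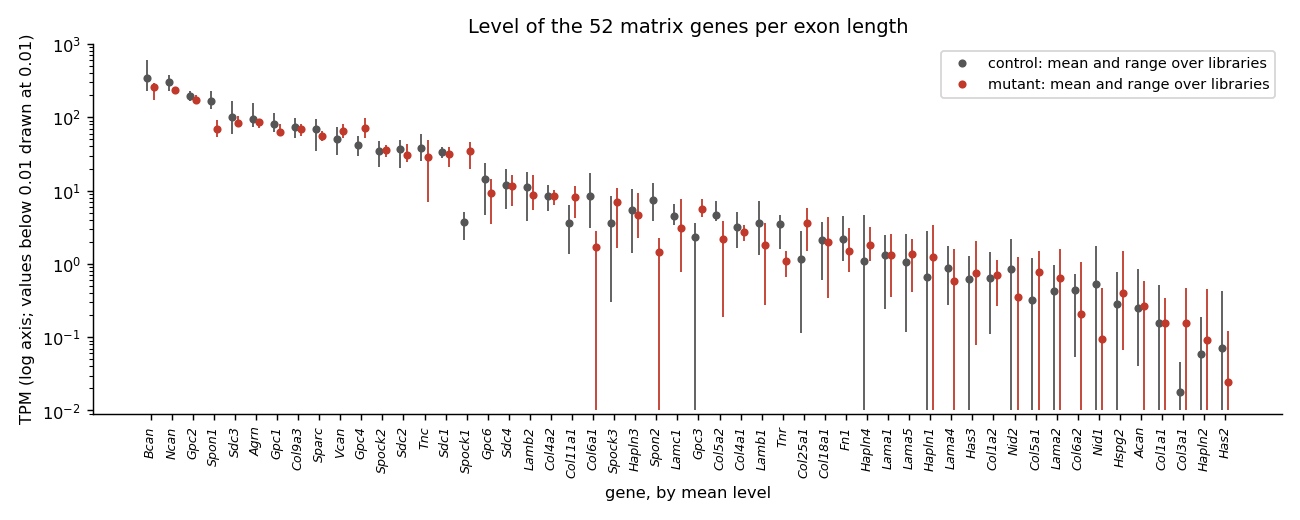
Length-scaled level (TPM, log axis, values below 0.01 drawn at 0.01) of the 52 genes, ordered by mean; points are group means of the control (grey) and mutant (red) libraries and lines span all libraries. Bcan, Ncan, Gpc2 and Spon1 are at the top of the range in the controls, and Spock1 is the gene with the widest gap between the groups among those called.

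Lecticans and tenascins form the hyaluronan-based matrix of the brain. None of the 4 lecticans passed the test, and of the 2 tenascins Tnr fell. Neurocan (Ncan), a lectican of young neural tissue, had 531 to 769.6 CPM in the 6 controls, with a median of 694 CPM; these and the CPM values below, unless said to be by library total, are scaled by library total and TMM factor. In the mutants it had 525, 464, 471, 515 and 551 CPM. The lowest controls, 4 and 1, lay within the range of the mutants, and the other 4 controls lay above all mutants. The log2 fold change of Ncan was -0.40 (SE 0.113), which did not pass (adjusted p = 0.0657, edgeR). It passed without control 1 (adjusted p = 0.0422), without control 4 (adjusted p = 0.0358) and with DESeq2 (adjusted p = 0.0258).

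Brevican (Bcan), a lectican of glia, had 273 to 762 CPM in controls, with a median of 374 CPM. It had 304, 219.6, 336, 348 and 375 CPM in mutants. Control 6, in which the markers of oligodendrocyte precursors were also highest, stood apart from the other controls, which reached at most 441 CPM. The log2 fold change of Bcan was -0.41 (SE 0.231, adjusted p = 0.397, edgeR), and it was 0.08 over the libraries without Y-linked counts. Versican (Vcan), found along paths of migrating cells, had 138 to 308 CPM in controls and 242 to 329 CPM in mutants, with a log2 fold change of 0.37 (SE 0.201, adjusted p = 0.384). Aggrecan (Acan) was near the limit of testing, with 0.592 CPM in both group means.

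Tenascin-R (Tnr), a matrix glycoprotein made in the brain chiefly by cells of the oligodendrocyte lineage and some neurons, had 6.82 to 18.0 CPM in controls, with a median of 13.5 CPM. In mutants it had 4.76, 2.80, 5.56, 2.47 and 5.89 CPM. All mutants lay below all controls, and the lowest control, control 1, lay close above the highest mutant. The means were 13.4 ± 4.26 CPM (SD, n = 6) and 4.30 ± 1.57 CPM (SD, n = 5). Tnr fell by 1.65 on the log2 scale (SE 0.321, adjusted p = 0.00808, edgeR), to 0.319 times the control level. Over the libraries without Y-linked counts the log2 fold change of Tnr was -1.49, no longer past the threshold (adjusted p = 0.144), and with the Y-linked level as a covariate it was -1.51 (adjusted p = 0.128). The 9 markers of oligodendrocyte precursors that no other marker list holds summed to 752 to 2010 CPM in controls and 565 to 851 CPM in mutants. Matn4 and Cspg5 are among these markers and are also in the list of other matrix proteins examined below. The part of these markers in the change of Tnr was not tested. Tenascin-C (Tnc), made by radial glia and astrocytes, had 61.9 to 136 CPM in controls and 59.3, 17.1, 75.4, 109.6 and 71.1 CPM in mutants, with a log2 fold change of -0.42 (SE 0.338, adjusted p = 0.587).

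The link proteins, which lock lecticans onto hyaluronan, were scarce. Hapln3 had means of 5.67 CPM in controls and 4.87 CPM in mutants, Hapln4 1.29 CPM and 2.09 CPM, and Hapln1 1.16 CPM and 2.11 CPM. None of the 3 passed. Hapln2 was not tested, with 2 counts in all controls together and 4 in all mutants. The hyaluronan synthases were near the floor as well. Has3 had 1.17 CPM in controls and 1.45 CPM in mutants (adjusted p = 0.923), and 352 bases of its exons overlap the more abundant Chtf8 on the other strand, whose reads cannot be told apart without a stated strand setting. Has2 was not tested, with 6 counts in controls and 2 in mutants.

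Spock1 showed the largest change of the 48 tested genes. It encodes testican-1, a secreted proteoglycan of the brain related to Sparc that carries chondroitin and heparan sulfate chains, and lies on the minus strand at chr13:57421195-57908332 (GRCm38). The 6 controls had 7.41, 11.003, 10.3, 9.41, 12.2 and 5.53 CPM. The 5 mutants had 93.8, 83.5, 110, 85.9 and 54.9 CPM. Every mutant was above every control, and the lowest mutant, mutant 5, was far above the highest control. The means were 9.32 ± 2.45 CPM (SD, n = 6) and 85.7 ± 20.1 CPM (SD, n = 5). Spock1 rose 9.17-fold, with a log2 fold change of 3.20 (SE 0.222, adjusted p = 1.09e-06, edgeR). The call held in each of the 23 alternatives, with log2 fold changes from 2.99 to 3.31, including 2.99 over the libraries without Y-linked counts (adjusted p = 0.00058).

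The other members of the class did not pass. Spock2 (testican-2) had 38.4 to 77.1 CPM in controls and 52.003 to 66.8 CPM in mutants. Its log2 fold change was 0.04 (SE 0.191), with an interval of 2 standard errors from -0.34 to 0.42, which does not reach the value of Spock1; the difference between the genes was not tested. Spock3 (testican-3) had 0.593 to 15.9 CPM in controls and 15.7, 3.10, 18.9, 10.6 and 14.6 CPM in mutants. The groups overlapped widely, with a log2 fold change of 0.92 (SE 0.593, adjusted p = 0.479). Sparc, a secreted calcium-binding glycoprotein made by glia and vessels, had 42.9 to 111 CPM in controls and 55.7 to 71.3 CPM in mutants. Its log2 fold change was -0.31 (SE 0.223, adjusted p = 0.533), and it was 0.12 over the libraries without Y-linked counts.

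Zeb2 is a zinc finger protein that binds E-box sequences, so the RefSeq promoter windows (250 bases before to 50 after each start, build GRCm38.p6) of the members were searched for CAGGTG and for CACCTG, its reverse complement. Of the 52 genes, 36 had a promoter in the RefSeq table, and of the genes called these were Spock1, Tnr and Gpc4. The motif was found in 4 of 41 member promoters (9.76%), beside 6640 of 32851 promoters in the table (20.2%). The 4 genes were Spock1, Sparc, Ncan with 3 matches and Lama5 with 2, and 1 match of each is printed, the one nearest to the start, as 30 bases of the gene's own strand from 5′ to 3′ with the motif in capitals, to show what surrounds it.
Spock1: agcggccggacgcgcggcggcggCAGGTGc
Sparc: gaacagatgagaCAGGTGgggccagggtgt
Ncan: agggggcggagtCAGGTGtagccagcccct
Lama5: gcgggcggccagCAGGTGccccttccagga
The Spock1 stretch (chr13:57908283-57908312, minus strand) lies after the start, with the motif at base 44 of the transcribed part. The Sparc stretch (chr11:55420064-55420093, minus strand) spans the start, with the motif beginning 1 base before it. In the Ncan stretch (chr8:70120944-70120973, minus strand) the motif begins 117 bases before the start, and in the Lama5 stretch (chr2:180226028-180226057, minus strand) 186 bases before it. A match is a description of these letters and says nothing of whether Zeb2 is bound there; of the 4 genes only Spock1 passed the test.

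Both spondins fell. Spon1 (chr7:113765998-114043370, plus strand) encodes F-spondin, a secreted protein of the floor plate and of neural progenitors with a role in axon guidance and cell adhesion. The 6 controls had 524, 407, 418, 749.7, 395 and 637 CPM. The 5 mutants had 225, 176, 217, 276 and 190 CPM. All mutants were below all controls, and controls 4 and 6 were the highest. The means were 522 ± 145 CPM (SD, n = 6) and 217 ± 38.5 CPM (SD, n = 5). Spon1 fell by 1.27 on the log2 scale (SE 0.1796, adjusted p = 0.000829, edgeR), to 0.416 times the control level. The call held in each of the 23 alternatives, with log2 fold changes from -1.44 to -1.14, and was -1.39 over the libraries without Y-linked counts (adjusted p = 0.0139).

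Spon2 (chr5:33198184-33218455, minus strand) encodes mindin, a related secreted protein known from innate immunity and cell adhesion. The 6 controls had 12.5, 4.26, 7.29, 8.37, 3.32 and 4.61 CPM. The 5 mutants had 1.92, 1.5001, 1.31, 1.498 and 0 CPM. The groups did not overlap, although the level was low throughout and mutant 5 had no count. The means were 6.72 ± 3.41 CPM (SD, n = 6) and 1.25 ± 0.731 CPM (SD, n = 5). Spon2 fell by 2.41 on the log2 scale (SE 0.627, adjusted p = 0.0434, edgeR). The call was lost when any 1 of controls 1 to 4 or of mutants 1 to 4 was left out (adjusted p = 0.0556 to 0.104), and over the libraries without Y-linked counts (log2 fold change -2.22, adjusted p = 0.362).

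**Figure D3:**
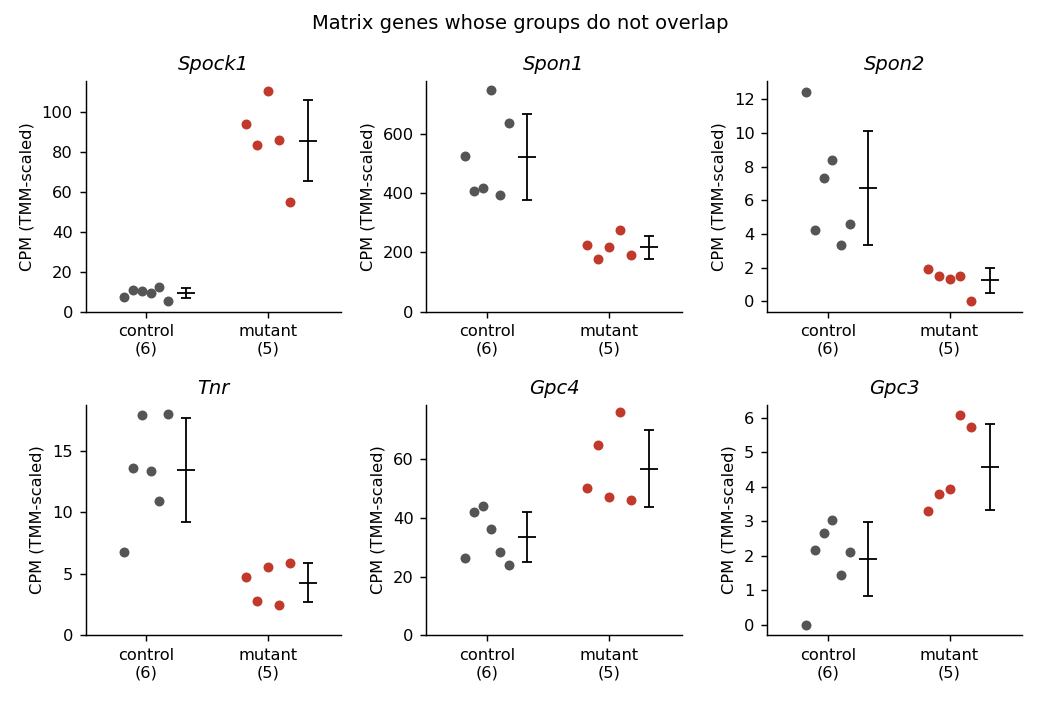
TMM-scaled CPM of Spock1, Spon1, Spon2, Tnr, Gpc4 and Gpc3 in each of the 6 control and 5 mutant libraries (points), with group means and SD bars. In all 6 panels the mutant points lie on one side of all control points, above for Spock1, Gpc4 and Gpc3 and below for Spon1, Spon2 and Tnr.

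Of the 7 laminin genes, which encode the chains of the main basement membrane network, none passed. Their control means ran from 2.09 CPM (Lama2) to 20.5 CPM (Lamb2), and 3 log2 fold changes were positive and 4 negative. Lamb2 had 7.56 to 33.4 CPM in controls and 9.52 to 33.4 CPM in mutants, with a log2 fold change of -0.32 (SE 0.389, adjusted p = 0.751). The highest mutant value of Lamb2 came from mutant 5, the library with the choroid plexus marker Ttr. Lamc1, a chain shared by most laminins, had 8.03 to 16.4 CPM in controls and 2.00 to 21.1 CPM in mutants (log2 fold change -0.47, SE 0.498, adjusted p = 0.709). Lamb1 had 4.30 to 20.6 CPM in controls and 3.30, 5.00, 10.3, 6.82 and 0.912 CPM in mutants, with a log2 fold change of -1.01 (SE 0.533, adjusted p = 0.368). Lama1, Lama4 and Lama5 had control means of 3.93, 3.20 and 3.51 CPM and mutant means of 3.98, 2.05 and 4.77 CPM.

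Agrin (Agrn), a heparan sulfate proteoglycan of basement membranes and synapses, was by far the most abundant of the other 7 basement membrane genes. It had 211 to 450.2 CPM in controls, with a median of 239.8 CPM, and 253, 206, 235, 223 and 280.4 CPM in mutants. Control 6 was the highest and the other 5 controls, at up to 256 CPM, lay within the mutant range. The log2 fold change of Agrn was -0.17 (SE 0.178, adjusted p = 0.702), and 0.03 without control 6. Col4a1 and Col4a2, the paired chains of type IV collagen, had 7.18 CPM and 16.7 CPM in controls and 6.23 CPM and 17.0 CPM in mutants. The log2 fold change of Col4a2 was 0.03 (SE 0.222, adjusted p = 0.967). Nid1, Nid2 and Hspg2 (perlecan), which connect or fill basement membranes, had control means of 1.11 to 1.27 CPM and Col18a1 one of 4.52 CPM; none passed. Reads of Nid2 may include those of Rtraf, which overlaps 437 bases of its exons on the other strand.

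No fibrillar collagen passed, but Col11a1 and Col5a2, which take part in the same kind of fibril, had fold changes of opposite sign. Col11a1, a minor fibrillar chain that sets the width of fibrils, had 5.63 to 23.2 CPM in controls, with a median of 11.1 CPM. In mutants it had 31.5, 29.1, 30.7, 43.3 and 18.1 CPM. Of the mutants, 4 lay above all controls and mutant 5 lay among them. The log2 fold change of Col11a1 was 1.16 (SE 0.329), which did not pass (adjusted p = 0.0657, edgeR). It passed in 6 alternatives: with DESeq2 (adjusted p = 0.0110), limma-voom (0.0458) and no filter (0.0498), without control 2 (0.0328), without mutant 5 (0.0469), and over the libraries without Y-linked counts (log2 fold change 1.68, adjusted p = 0.0428).

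Col5a2 had 11.3 to 19.5 CPM in controls and 7.14, 11.6, 3.49, 0.524 and 9.29 CPM in mutants. Only mutant 2 reached the range of the controls, and the log2 fold change was -1.06 (SE 0.495, adjusted p = 0.298). Col1a2 and Col5a1 had control means of 2.38 and 0.811 CPM and mutant means of 2.67 and 2.07 CPM. Col1a1 (20 counts in controls, 17 in mutants) and Col3a1 (3 counts in controls, 29 in mutants), the main collagens of fibroblasts, were below the limit for testing. The mean levels by library total over all 11 libraries just outside the limit were 0.306 CPM for Col1a1 and 0.234 CPM for Col3a1, and just inside it were 0.594 CPM for Acan and 0.698 CPM for Nid1.

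Type VI collagen, a microfibril of chains encoded by separate genes, was uneven. Col6a1 had 3.86 to 22.0 CPM in controls, with a median of 9.66 CPM, and 2.61, 3.90, 0, 1.80 and 3.07 CPM in mutants. Mutant 2 lay just above the lowest control, control 2, and the other mutants lay below all controls. The log2 fold change of Col6a1 was -2.25 (SE 0.641), which did not pass (adjusted p = 0.0669, edgeR) but did with DESeq2 (adjusted p = 0.00441). Col6a2 had at most 1.77 CPM in any control and 0 CPM in every mutant except mutant 5, which had 2.90 CPM. Col6a3, one of the type VI chains outside the 52 genes, had 1.04, 0, 0.197, 0.314, 1.22 and 0.0922 CPM in controls. In mutants it had 11.97, 19.0, 13.6, 9.06 and 9.62 CPM, all above all controls. Col6a3 rose by a log2 fold change of 4.81 (SE 0.626, adjusted p = 0.000445, edgeR). Col6a3 reached the limit for testing only through the mutants, the group in which it was high. With the Y-linked level as a covariate its log2 fold change was 3.99, no longer past the threshold (adjusted p = 0.0538). Col6a2 had a log2 fold change of -0.90 (adjusted p = 0.780), and those of Col6a4 and Col6a5, also outside the 52 genes, were -0.04 (adjusted p = 0.988) and 1.93 (adjusted p = 0.404).

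Col9a3, a chain of type IX collagen, was the most abundant collagen among the members. It had 63.1 to 115 CPM in controls and 67.6 to 89.97 CPM in mutants, with a log2 fold change of -0.08 (SE 0.161, adjusted p = 0.858). Col25a1, a membrane-bound collagen of neurons, had 0.461 to 10.4 CPM in controls and 21.2, 8.80, 14.3, 18.3 and 6.39 CPM in mutants. Of the mutants, 3 lay above all controls, and the log2 fold change of 1.61 (SE 0.581) did not pass (adjusted p = 0.160). Fibronectin (Fn1), a matrix protein of vessels and mesenchyme, had 3.61 to 16.3 CPM in controls and 2.62 to 10.2 CPM in mutants (log2 fold change -0.59, SE 0.443, adjusted p = 0.554).

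**Figure D4:**
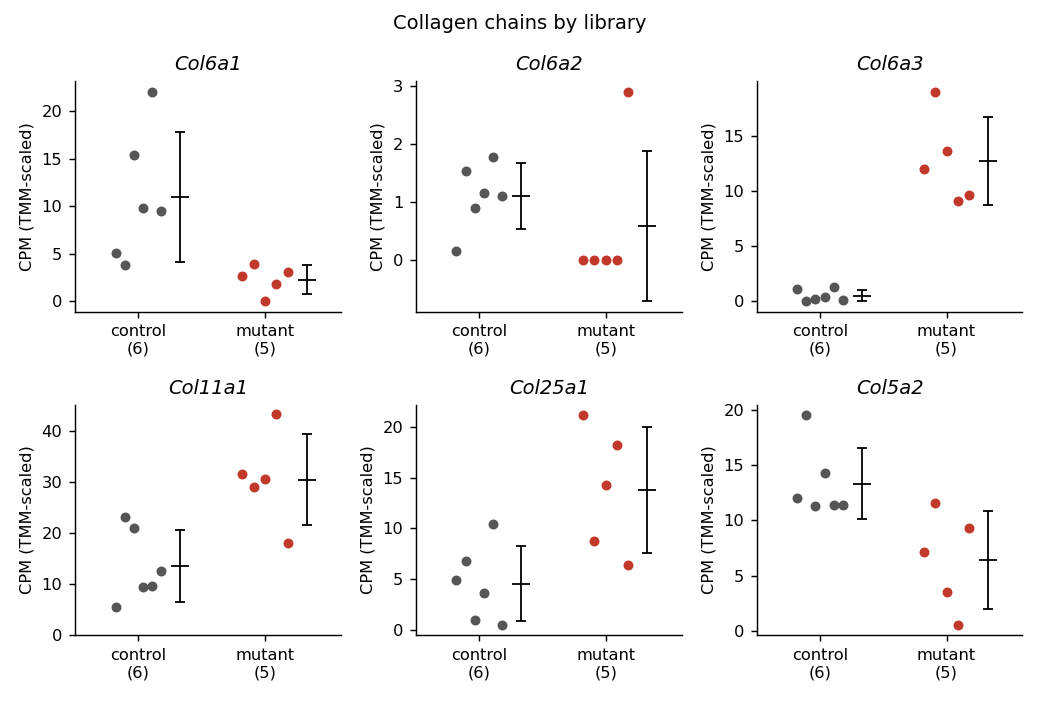
TMM-scaled CPM of Col6a1, Col6a2, Col6a3, Col11a1, Col25a1 and Col5a2 in each control and mutant library (points), with group means and SD bars. The Col6a3 points do not overlap between the groups, whereas in each of the other 5 panels the ranges of the groups overlap.

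Among the cell-surface proteoglycans, 1 of 5 glypicans passed the test and none of 4 syndecans. Gpc4 (chrX:52053021-52165252, minus strand), a glypican of neural progenitors and astrocytes, had 26.2, 41.9, 43.8, 36.3, 28.5 and 23.9 CPM in controls. It had 50.04, 64.8, 46.9, 75.8 and 45.9 CPM in mutants. Every mutant lay above every control, with the lowest mutant, mutant 5, close to the highest control, control 3. The means were 33.4 ± 8.44 CPM (SD, n = 6) and 56.7 ± 13.1 CPM (SD, n = 5). Gpc4 rose 1.69-fold, with a log2 fold change of 0.76 (SE 0.197, adjusted p = 0.0434, edgeR). The call was lost when any 1 of controls 1, 4, 5 and 6 or of mutants 1 to 4 was left out (adjusted p = 0.0588 to 0.123), and with library totals alone (adjusted p = 0.0607). Gpc4 and its neighbour Gpc3, 107173 bases away, are the 2 members on the X chromosome. Over the libraries without Y-linked counts, the log2 fold change of Gpc4 was 0.82 (adjusted p = 0.203).

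Gpc3, a glypican that limits growth in the embryo, had 0, 2.17, 2.66, 3.03, 1.44 and 2.12 CPM in controls. In mutants it had 3.30, 3.80, 3.93, 6.07 and 5.72 CPM. The groups did not overlap, but the log2 fold change of 1.24 (SE 0.567) did not pass (adjusted p = 0.282, edgeR). The abundant glypicans did not pass either. Gpc2, known from growing axons and progenitors, had 226 to 298 CPM in controls and 186 to 267 CPM in mutants (log2 fold change -0.16, SE 0.117, adjusted p = 0.550). Gpc1 had 93.0 to 183 CPM in controls and 93.3, 90.7, 92.6, 82.2 and 139 CPM in mutants, with a log2 fold change of -0.36 (SE 0.183, adjusted p = 0.343). Gpc6 had 9.13 to 44.2 CPM in controls and 7.46 to 26.6 CPM in mutants, with a log2 fold change of -0.66 (SE 0.379, adjusted p = 0.415).

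The syndecans all had small negative log2 fold changes, from -0.26 (Sdc2) to -0.05 (Sdc4), and overlapped between the groups. Sdc3, the syndecan of neurons and their precursors and the most abundant of the 4, had 114 to 309 CPM in controls and 127 to 182 CPM in mutants. Its log2 fold change was -0.25 (SE 0.215, adjusted p = 0.617), and it was 0.11 over the libraries without Y-linked counts. Sdc2 had 23.3 to 49.9 CPM in controls and 28.8 to 43.6 CPM in mutants (SE 0.191, adjusted p = 0.554).

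Genes that build, modify, bind or cut this matrix were examined in 5 further lists of 235 genes, of which 188 were tested. Of these, 9 were higher and 11 lower in the mutants, together 10.6% beside 4.14% of all tested genes. The median log2 fold change was -0.06 over the 188 genes. Among the enzymes of chondroitin and heparan sulfate chains (41 of 45 tested), 2 were higher and 1 lower, together 7.32%. Csgalnact1, which starts and extends chondroitin sulfate chains, had 1.93, 7.87, 4.73, 1.15, 6.98 and 2.86 CPM in controls. It had 61.3, 52.9, 60.9, 49.7 and 15.3 CPM in mutants. Every mutant was above every control, with mutant 5 the lowest. Csgalnact1 rose by a log2 fold change of 3.47 (SE 0.457, adjusted p = 0.000457, edgeR), a call that held in all 23 alternatives (3.27 to 3.75).

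Extl1, an exostosin-like glycosyltransferase of heparan sulfate chains, had no count in any control and 3.84, 2.7001, 3.16, 1.27 and 3.82 CPM in mutants. Against a floor of 3 counts per control library, it was at least 9.32-fold higher in the mutants (adjusted p = 0.00121, edgeR). Extl1 reached the limit for testing only through the mutants, the group in which it was high. Hs3st2, a heparan sulfate sulfotransferase, had 12.1 to 23.4 CPM in controls and 5.39 to 12.3 CPM in mutants. Hs3st2 fell by 0.96 on the log2 scale (SE 0.244, adjusted p = 0.0388), and the call was lost in 13 of 23 alternatives, including 9 of the 11 that leave out 1 library (each control except control 4 and each mutant except mutant 2; adjusted p = 0.0570 to 0.0945).

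Among 26 tested matrix receptors, 1 rose and none fell (3.85%, near the 4.14% of all tested genes). It was Cd44, a receptor for hyaluronan, with 1.66 to 2.97 CPM in controls and 6.68, 11.5, 12, 5.32 and 13.02 CPM in mutants. All mutants were above all controls, and the log2 fold change was 1.97 (SE 0.305, adjusted p = 0.00155, edgeR). Over the libraries without Y-linked counts the log2 fold change of Cd44 was 2.11 (adjusted p = 0.0913). Of 17 tested collagen-modifying enzymes, 1 fell (5.88%, also near that share). It was P4ha3, a prolyl hydroxylase subunit, with 10.3 to 16.6 CPM in controls and 2.76, 2.7001, 7.09, 5.39 and 5.14 CPM in mutants. P4ha3 fell by 1.56 on the log2 scale (SE 0.295, adjusted p = 0.00654), and over the libraries without Y-linked counts its log2 fold change was -1.46 (adjusted p = 0.173).

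Of 34 tested matrix proteases and their inhibitors, 5 fell and none rose (14.7%, beside 4.14% of all tested genes). Serpine2, a secreted inhibitor of serine proteases also called protease nexin, had 176 to 342 CPM in controls and 126, 110.2, 128, 150.3 and 116 CPM in mutants. All mutants were below all controls, with control 6 the highest. Serpine2 fell by 0.82 on the log2 scale (SE 0.179, adjusted p = 0.0162, edgeR). The metalloproteinases Mmp17 and Mmp11 fell by 0.98 (adjusted p = 0.0185) and by 0.91 (adjusted p = 0.0186), with means of 20.5 and 24.1 CPM in controls and 10.4 and 12.8 CPM in mutants. Leaving out mutant 3 ended the call for Mmp17 (adjusted p = 0.0504), as did leaving out mutant 1 (adjusted p = 0.0593) or mutant 4 (adjusted p = 0.0563) for Mmp11. The metalloproteinase inhibitors Timp4 and Timp1 fell by 1.31 (adjusted p = 0.0416) and by 3.00 (adjusted p = 0.0463). Their calls were lost in 9 and 10 of the 11 fits that leave out 1 library (for Timp4 every library except controls 4 and 5, adjusted p = 0.0527 to 0.0950; for Timp1 every library except control 6, adjusted p = 0.0554 to 0.116). Timp1 reached the limit for testing only through the controls, the group in which it was high. None of the 5 calls held over the libraries without Y-linked counts. Exons of Mmp11 overlap Chchd10 and those of Timp4 overlap Syn2 on the other strand, so reads of these genes may be shared.

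Of 70 tested other matrix proteins, 6 rose, Col6a3 among them, and 4 fell (together 14.3%, beside 4.14% of all tested genes). Nell1, a secreted glycoprotein with thrombospondin-like domains, had 6.90 to 25.5 CPM in controls and 66.5, 53.5, 65.8, 26.1 and 75.6 CPM in mutants. The lowest mutant, mutant 4, lay just above the highest control, control 6. Nell1 rose by a log2 fold change of 2.07 (SE 0.315, adjusted p = 0.00139, edgeR). Elastin (Eln), the core protein of elastic fibres, had 5.65 to 13.7 CPM in controls and 25.6, 17.2, 31.4, 25.5 and 32.3 CPM in mutants, and rose by a log2 fold change of 1.43 (SE 0.251, adjusted p = 0.00384). Nephronectin (Npnt), an integrin ligand, had 6.38, 6.99, 6.11, 0.209, 1.99 and 0.0922 CPM in controls and 51.9, 32.8, 64.7, 50.4 and 27.5 CPM in mutants, and rose by a log2 fold change of 3.65 (SE 0.650, adjusted p = 0.00429). The calls for Nell1, Eln and Npnt held in all 23 alternatives.

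Podn, a small leucine-rich proteoglycan, rose from 0.487 to 4.65 CPM (adjusted p = 0.0249), a call lost without control 3, control 4, mutant 1 or mutant 5 (adjusted p = 0.0534 to 0.0609). Podn also reached the limit for testing only through the mutants. Edil3, a secreted integrin ligand, rose from 52.5 to 78.6 CPM (adjusted p = 0.0294), and lost its call without any 1 of controls 2 to 4 or of mutants 1, 2, 3 and 5 (adjusted p = 0.0515 to 0.0881) and over the libraries without Y-linked counts (adjusted p = 0.112). Smoc1, a secreted relative of Sparc, had 131 to 233 CPM in controls and 109, 105.5, 109, 121 and 102 CPM in mutants. Smoc1 fell by 0.80 on the log2 scale (SE 0.132, adjusted p = 0.00252, edgeR), and over the libraries without Y-linked counts its log2 fold change was -0.65 (adjusted p = 0.152). Col17a1, a transmembrane collagen of epithelia, had 0.926 CPM in controls and no count in any mutant, at least 3.48-fold lower against a floor of 3 counts per mutant library (adjusted p = 0.0118). Col17a1 reached the limit for testing only through the controls and was tested in 16 of the 23 alternatives, and with the Y-linked covariate it did not pass (adjusted p = 0.100). Frem2, a membrane protein that tethers basement membranes, fell from 16.1 to 4.61 CPM (adjusted p = 0.0153), a call lost with the Y-linked covariate (adjusted p = 0.0752).

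**Figure D5:**
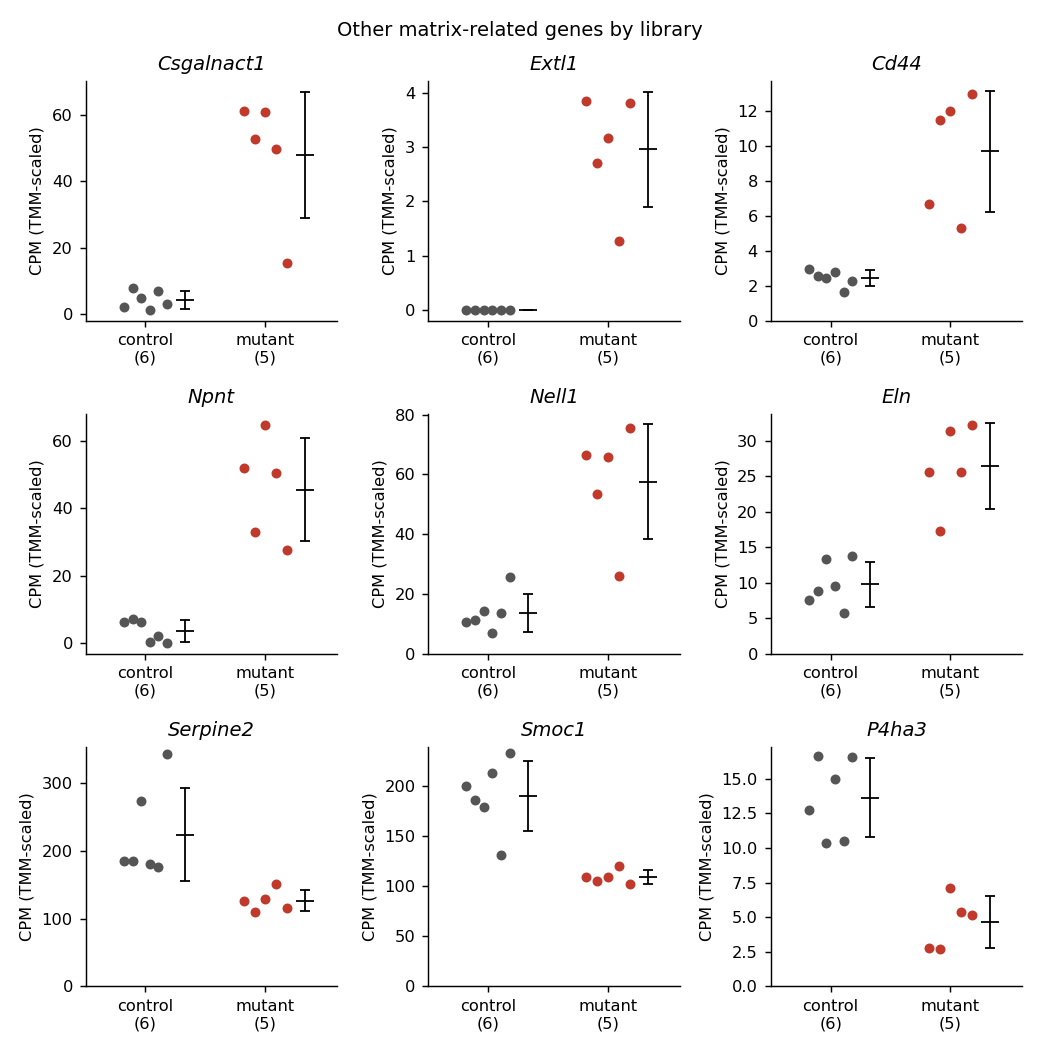
TMM-scaled CPM of Csgalnact1, Extl1, Cd44, Npnt, Nell1, Eln, Serpine2, Smoc1 and P4ha3 in each control and mutant library (points), with group means and SD bars. Mutant points lie above all control points for the first 6 genes and below them for Serpine2, Smoc1 and P4ha3.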

How the data were processed

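The deposited table holds raw read counts per Ensembl gene, 1 column per library (6 control, 5 mutant, grouped by genotype per the labels). Per the submitters' processing notes, the tools were TopHat2 2.0.13 and featureCounts 1.4.6, with mm10 or GRCm38 as the build. For the counting, neither annotation release, strand setting nor handling of multi-mapped reads is stated (not given in the sources used here). RNA came from Trizol LS and RNeasy Micro extraction with TruSeq libraries, per the labels' protocols. Symbols, coordinates and exon lengths came from the annotation given for GRCm38, which matched 37693 of 39179 identifiers, with at least 99.67% of the counts of each library.

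Genes with a mean of at least 0.5 CPM by library totals were tested with edgeR 4.0.16 (R 4.3.3; TMM factors, robust quasi-likelihood fit, Benjamini-Hochberg adjustment over 15227 genes, threshold 0.05). Means and SDs are of TMM-scaled CPM. TPM was computed from the counts and union exon lengths. The 23 alternatives changed the scaling, the low-count filter, the test (DESeq2 1.42.0; limma-voom, limma 3.58.1), the libraries (each left out in turn, or only those without Y-linked counts), or added a replicate block or the Y-linked level, or left out the abundant gene Gm42418, which held 6.25% to 12.2% of a library's counts. Any pair of replicate libraries differed beyond counting noise (chi-square divided by its degrees of freedom, 13.7 or more), and each was 1 sample. Zeb2 was compared with an exact permutation test (scipy 1.17.1) over 462 splits. Library depth ran from 6833981 to 13073505 counts. A floor of 3 counts covers only counting error. On simulated counts with 200 of 15227 genes changed, the fit recovered 40% of 2-fold and 68% of 4-fold changes, and 9 of 117 calls were unchanged genes.

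Genes were named by a rule: Zeb2, every member past the threshold, the most abundant members of each class until 2 were named, and up to 4 genes past the threshold with the smallest adjusted p from each related list. Every other gene named was added after its values were seen, among them Gpc3, Col25a1, Vcan, Npnt and other called genes of the related lists; 1 called gene of these lists is not reported here. The members and all gene lists were chosen with earlier results of these data known.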

Additional observations from a re-analysis of the deposited data

Results flagged for a closer look

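In 13 of 96 groups of libraries (48 tested members, 2 groups each) the highest or lowest library stood far from the rest by Dixon's test. For normally distributed values chance gives about 1 in 20 groups, or 4.8. Genes near the floor, such as Nid1 and Col6a2, do not have such values, so 4.8 is only a rough guide and no excess is read from it. Mutant 5, the library with the choroid plexus marker Ttr, held 4 of the 13: Lamb2 at 33.4 CPM, Hspg2 at 7.22 CPM, Gpc1 at 139 CPM and Col6a2 at 2.90 CPM, each above the other mutants. Control 6, with the highest markers of oligodendrocyte precursors, held 2: Bcan at 762 CPM and Agrn at 450.2 CPM. The same genes were in part high in both libraries. Control 6 was also the highest control for Lamb2 (33.4 CPM), Hspg2 (3.41 CPM) and Gpc1 (183 CPM), though not for Col6a2. Mutant 5 was the highest mutant for Bcan (375 CPM) and Agrn (280.4 CPM). Control 3 was high for the link proteins Hapln1 (5.02 CPM) and Hapln4 (5.42 CPM), control 1 for Acan (2.08 CPM), control 2 for Col5a2 (19.5 CPM) and mutant 1 for Nid1 (0.921 CPM). Mutant 3 was low for Sdc1 (23.1 CPM) and high for Sdc2 (43.6 CPM). None of these genes passed the test between the groups.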

How the results depend on the processing

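The calls for Spock1 and Spon1 held in each of the 23 alternatives, Tnr in 20, Spon2 in 12 and Gpc4 in 10. Matrix members called higher numbered 2 in the reported fit and 1 with upper quartile factors, library totals only, the replicate block or the Y-linked covariate (1 to 3 with 1 library left out). Members called lower numbered 3, and 5 with DESeq2, 1 with the Y-linked covariate and 1 over libraries without Y-linked counts. Over all genes, 383 higher became 626 with DESeq2, 255 with the replicate block, 110 with the Y-linked covariate and 141 over libraries without Y-linked counts, and 247 lower became 508, 133, 56 and 59 (133 to 232 with 1 library left out; lowest without mutant 3). For the related lists 11 lower became 17, 3, 0 and 1 (6 to 12 with 1 library left out). With the replicate block Tnr (-1.56, adjusted p = 0.0514) and Gpc4 (0.68, adjusted p = 0.0916) lost their calls, as did Col17a1 (adjusted p = 0.136). Same-numbered libraries correlated by -0.27 to 0.04 in their deviations, and among controls 1 to 5 no mutant correlated best with its own number. Control 6 was not in this check and stood alone in the replicate block. The check therefore cannot say whether libraries were paired or batched in a way that their numbers do not show. Signs reversed, for members that passed in no fit, under the Y-linked covariate and over libraries without Y-linked counts for Bcan (0.0028 and 0.079), Hapln3 (1.23 and 1.31), Sparc (0.11 and 0.12), Lamb2 (0.19 and 0.22), Col4a2 (-0.34 and -0.32), Col9a3 (0.12 and 0.15) and Sdc3 (0.050 and 0.11), and for Agrn over those libraries (0.069). The replicate block reversed Hapln3 (0.28), Agrn (0.033) and Col9a3 (0.034). With 1 library left out, values ran from -0.60 to 0.10 for Hapln3, -0.24 to 0.034 for Agrn, -0.059 to 0.15 for Col4a2, -0.16 to 0.020 for Col9a3, -0.59 to 0.63 for Has3 and -0.051 to 0.14 for Spock2. The cause was not tested. Genes of a few counts, such as Nid1 and Hspg2, are limited by depth.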

Other observations

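Several members lie next to each other in the genome. Lectican and link protein genes are paired: Acan and Hapln3 lie 2 bases apart, Ncan and Hapln4 2222 bases, Bcan and Hapln2 21519 bases, and Vcan and Hapln1 43659 bases. Their levels differed widely within a pair, with 343 TPM for Bcan and 0.0587 TPM for Hapln2 in controls, and 308 TPM for Ncan and 1.10 TPM for Hapln4. Col6a1 and Col6a2 lie 85161 bases apart, and Col3a1 and Col5a2 24614 bases.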
